A study of Nematostella vectensis with 123 samples.

Results

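The 98 transcript models described here belonged to RNA that was already present in the first 6 h of development of the starlet sea anemone Nematostella vectensis. As a share of the counts, they kept at least 0.5 times their early median at 18 to 24 h and were low by 42 to 48 h. Relative to added control RNA (spike-ins) the fall was smaller, with a median ratio of 42 to 48 h to 0 to 6 h of 0.62. The 98 were chosen from 40499 models by their CPM in embryos 1 to 73. CPM is a model's count as a share of all transcript-model counts of the embryo, scaled to counts per 1e+06. Of these 40499, 7676 had a median of at least 20 CPM in the embryos labelled under 360 min. Of these, 4338 kept at least 0.5 times that median at 18 to 24 h. The 98 models among them had at most 0.25 times it at 42 to 48 h. The rule allowed up to 200 models, so all 98 that met it are members. The levels in these 3 bins therefore chose the models and are given as descriptions.

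The series profiled 123 single embryos, picked when they had 4 cells and kept at 20 °C until each was frozen. Each embryo was sequenced once by CEL-Seq, which tags the RNA of an embryo with a barcode and reads the 3' ends of polyadenylated molecules. The labels give a time for each embryo and no unit, and the times were read as minutes. They give no genotype, strain, treatment, sex or clutch, so whether the groups share these is not known from the labels. The labelled differences between groups are age and embryo number. Embryos 1 to 73 were grouped in bins of 6 h. These held 10 embryos at 0 to 6 h, 9 at 6 to 12 h, 8 at 12 to 18 h, 8 at 18 to 24 h, and 9 each at 24 to 30, 30 to 36, 36 to 42 and 42 to 48 h. Embryos 74 to 123, in which a higher number has an earlier label time, gave 12 embryos at 39 to 48 h, 18 at 48 to 60 h and 19 at 60 to 72 h. Their label times reach 72 h, although the protocol describes collection up to 48 h. Number block and age cannot be told apart where the blocks are compared at different ages.

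An animal egg is loaded with RNA made by the mother, and the first divisions run on it. Embryos then remove much of this store while their own genome takes over, and different maternal RNAs go at different times. In Nematostella this period leads from cleavage through a hollow blastula and gastrulation to a swimming planula larva. CEL-Seq does not tell RNA made by the mother from RNA made by the embryo, so "maternal" can be read here only as present at the start.

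The files and the reference table pair none of the 98 identifiers with a gene name, and none of the 38762 genes of that table (assembly jaNemVect1.1) matched a model. No gene function can therefore be given, and models are named by identifier. The first embryos carried nearly all of the models. Embryo 50, labelled -20 min, had counts for 94 of the 98, embryo 1 (0 min) for 96, and embryos 2 and 3 (20 and 40 min) for 98 each. These embryos are in the 0 to 6 h bin that chose the models, so counts for most models were built into the choice. By number, embryo 50 stands between embryos of 32 h and 32.7 h. Across 16601 models its log2 CPM profile correlated best with the median of the other 0 to 6 h embryos (r = 0.87), against r = 0.34 with embryos of 30 to 36 h, which is a description across models that are not independent. The 120 embryos used had 58680 to 2646585 transcript-model counts (median 835502). In an embryo of median depth, 3 counts correspond to 3.59 CPM, and this limit covers counting error only.

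The members were not absent from late embryos. All 98 had counts in at least some of the 42 to 48 h embryos, 71 had counts in every one of these 9, and none had a median of 0. In the embryos 74 to 123 the median was 0 for 7 models at 39 to 48 h and for 16 at 60 to 72 h. The median of the 98 median levels was 61.5 CPM at 0 to 6 h, 40.3 CPM at 18 to 24 h and 12.3 CPM at 42 to 48 h. Single models ranged there from 20.9 to 1956 CPM, up to 1201 CPM and from 0.685 to 453 CPM. The ratio of the late to the early median lay between 0.033 and 0.25, with a median of 0.21. The word "lost" in the working name of this set is thus stronger than the data: these are models with a lowered share of the counts. In whole embryos, fewer cells of a type and less RNA per cell cannot be told apart.

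Close to the thresholds the models on either side were alike. Nv.T1.6961.4 was the last inside on the late level, with 162 CPM early and 40.4 CPM late, a ratio of 0.2497. Nv.T1.23230.1 stood just outside, with 50.9 and 12.8 CPM and a ratio of 0.2519. On the level at 18 to 24 h, Nv.T1.30839.1 entered with 0.5002 times its early level, and Nv.T1.41139.1 was left out with 0.4994 times. On the early level, Nv.T1.3948.2 entered at 20.9 CPM and Nv.T1.18811.1 was left out at 19.9 CPM.

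In CPM the shared decline began before 24 h and was gradual. The summed counts of the 98 models made up a median of 1.43% of model counts at 0 to 6 h (0.920 to 2.21% over 10 embryos). In the bins that played no part in the choice, the share was 1.54% at 6 to 12 h (1.36 to 2.22%), 1.19% at 12 to 18 h (0.916 to 2.32%), 0.646% at 24 to 30 h (0.477 to 1.19%), 0.480% at 30 to 36 h (0.323 to 0.838%) and 0.361% at 36 to 42 h (0.244 to 0.620%). The 24 to 30 h embryos thus all lay below the 6 to 12 h embryos, while neighbouring bins from 24 h on overlapped. In 33 models the highest bin median was at 0 to 6 h, in 45 at 6 to 12 h, in 12 at 12 to 18 h and in 8 at 18 to 24 h. The bin from which the median stayed at or under 0.5 times the early level was 24 to 30 h for 62 models, 30 to 36 h for 24, 36 to 42 h for 8 and 42 to 48 h for 4. In 33 of the 98 the median was lower at each step from 18 to 24 h to 42 to 48 h. The rule set 18 to 24 h high and 42 to 48 h low. The bin of passing 0.5 times could therefore be no earlier or later than these. A fall between 18 to 24 h and 42 to 48 h was likewise built into the choice.

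**Figure D1:**
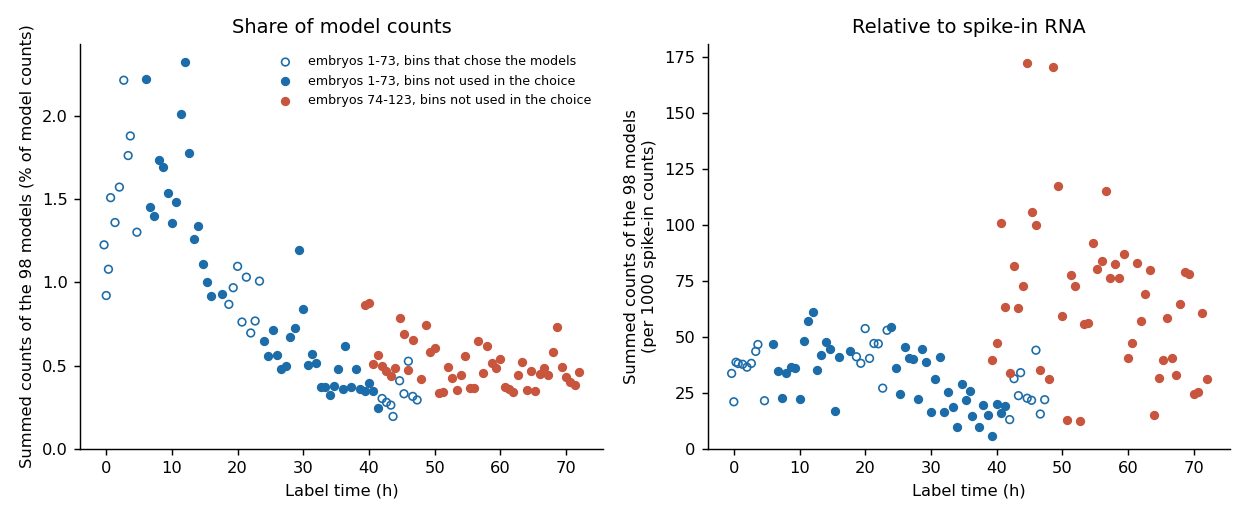
Summed counts of the 98 models in each of 120 embryos against label time in hours, as a percentage of transcript-model counts (left) and per 1000 spike-in counts (right). Each point is 1 embryo, and open points are embryos whose bins chose the models. The share is lower from 24 h on, whereas relative to spike-in RNA embryos 74 to 123 reach the highest values.

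Other RNA of the early embryo gives the background for this course. Over all 7676 models with at least 20 CPM early, the median ratio to the early level was 0.69 at 12 to 18 h, 0.60 at 18 to 24 h, 0.57 at 24 to 30 h and 0.52 at 42 to 48 h. Among the 98 it was 0.76, 0.61, 0.42 and 0.21 in the same bins. At 30 to 36 h it was 0.33 against 0.55 over the 7676, and at 36 to 42 h 0.26 against 0.49. All of these ratios are divided by the 0 to 6 h level that the rule used, so they are a description of the chosen models and not independent of the choice.

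**Figure D2:**
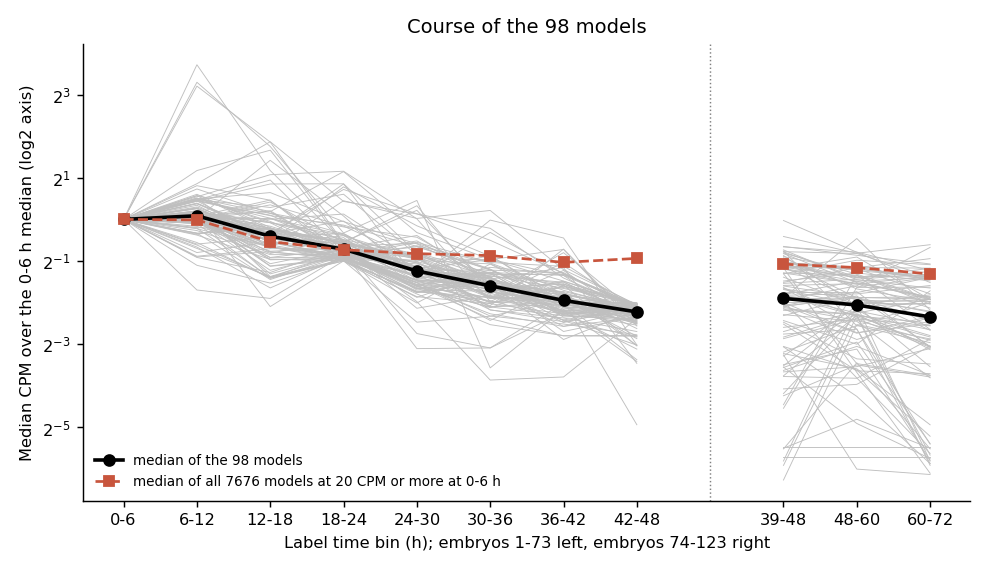
Median CPM of each model in each label-time bin divided by its 0 to 6 h median, on a log2 axis, with thin lines for the 98 models (values under 0.5 CPM are drawn at 0.5 CPM). The black line, the median of the 98, falls from 1.06 at 6 to 12 h to 0.21 at 42 to 48 h, and the dashed line, the median of the 7676 models at 20 CPM or more early, stays at 0.49 or above in embryos 1 to 73.

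Tests were run on embryos that had no part in the choice, over all models, with edgeR's quasi-likelihood test. A model was called where its p, adjusted by Benjamini and Hochberg's method over all models tested, was under 0.05 and its log2 fold change was 1 or more in size. Before the fall, from 6 to 12 h (9 embryos) to 12 to 18 h (8 embryos), 3 of 96 members tested fell and 1 rose. Over all 9949 models, 11.0% were called lower and 12.2% higher in that step. With spike-in scaling, which sets libraries by their added control RNA, 1 fell and 5 rose, where 3.62% and 17.4% of models did. With TMM, the shares of members called (3.13% lower, 1.04% higher) were not above the background. The members' median log2 fold change was -0.33, against 0.04 over all models tested. These bins lie between the 0 to 6 h and 18 to 24 h bins, where the rule asked for high levels. A low number of falls in this step was thus partly built into the choice, as far as neighbouring embryos are alike.

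From 12 to 18 h to 24 to 30 h, 31 of 89 members tested fell (34.8%) and none rose. Over all 11098 models 9.93% were called lower and 12.5% higher. The 24 to 30 h bin lies between the bins that the rule set high and low. Part of this fall was thus built into the choice, as far as neighbouring embryos are alike. With spike-in scaling 2 of these 31 were called lower, and all 31 still lay below 0. The median log2 fold change was -0.86 for the members and 0.02 for all models, and 82 of the 89 members lay below 0. Nv.T1.63571.13856 was 1 of the models that fell in this step. It had 363 to 1216 CPM at 12 to 18 h (median 728) and 111 to 268 CPM at 24 to 30 h (median 161). The groups did not overlap, and the log2 fold change was -2.04 ± 0.25 (SE, adjusted p = 1.2e-05). Its identifier stem, 63571, covers 3153 models, so counts that fall on near-identical models are uncertain. Nv.T1.12421.1 also fell in this step (log2 fold change -2.56 ± 0.89, adjusted p = 0.035), after it had risen from 6 to 12 h to 12 to 18 h (1.78 ± 0.62, adjusted p = 0.040). Its 12 to 18 h values ran from 18.3 to 631 CPM with a median of 47.1, and embryo 25 alone held the highest. At 6 to 12 h it had 3.71 to 82.4 CPM and at 24 to 30 h 0 to 131 CPM, so both comparisons overlapped. Neither call was stable. The rise was not called with voom (0.50, adjusted p = 0.51), with a minimum of 500000 counts (0.87, adjusted p = 0.20) or with embryo 27 included (1.65, adjusted p = 0.071). The fall was not called with spike-in scaling (-1.66, adjusted p = 0.052), with DESeq2 (-2.50, adjusted p = 0.052) or with that minimum (-1.63, adjusted p = 0.20).

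With TMM the members drifted down in small steps after 24 h. From 24 to 30 h to 36 to 42 h (9 embryos each), 5 of 78 members tested fell (6.41%) and none rose, where 1.21% of 11212 models were called lower and 2.15% higher. Of the 78, 60 lay below 0, and the median log2 fold change was -0.50 against -0.00 over all models. The members called were Nv.T1.1084.2, Nv.T1.27001.1, Nv.T1.6123.6, Nv.T1.1084.5 and Nv.T1.6461.4, the last 3 of them named after their values were seen. Without embryo 62 the count was 2, and without embryo 45 or without embryo 56 it was 8. These bins lie between the bins that the rule set high and low, so a fall in them was built into the choice as far as neighbouring embryos are alike. Between neighbouring bins, 1 of 91 members (Nv.T1.5919.5) fell from 24 to 30 h to 30 to 36 h, where 0.150% of models were called lower and 0.449% higher. With spike-in scaling 3 members fell in that step, against 0.221% of models, while 0.0315% of models rose. From 30 to 36 h to 36 to 42 h, 0 of 63 members were called by edgeR, as were 0 of all 10320 models, with 2 members at an unadjusted p under 0.05. DESeq2 and voom also called 0 members there.

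Nv.T1.27001.1 fell late. It had 55.7 to 379 CPM at 6 to 12 h (median 159) and 50.5 to 253 CPM at 12 to 18 h (median 118). At 18 to 24 h, which helped to choose it, it had 170 to 403 CPM (median 247). At 24 to 30 h it still had 115 to 290 CPM (median 165), and at 36 to 42 h 15.2 to 96.6 CPM (median 60.9). These last groups did not overlap. The log2 fold change between them was -1.46 ± 0.32 (SE, adjusted p = 0.014). Over the 27 embryos from 24 to 42 h its slope was -0.76 ± 0.18 (SE) on the log2 scale per 6 h (adjusted p = 0.0087). In that fit, which has no fold threshold, 8 of 46 members tested fell with label time, where 3.02% of 7589 models fell and 3.91% rose. With spike-in scaling 22 of the 46 fell, against 10.2% of models, while 0.369% of models rose. The bins of this fit lie between those that the rule set high and low. A fall of the members over them was thus built into the choice, as far as neighbouring embryos are alike. Nv.T1.846.1 was next, with a slope of -0.59 ± 0.18 per 6 h (adjusted p = 0.036). It had 94.1 to 353 CPM at 24 to 30 h and 48.6 to 216 CPM at 36 to 42 h, with overlap between these groups.

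**Figure D3:**
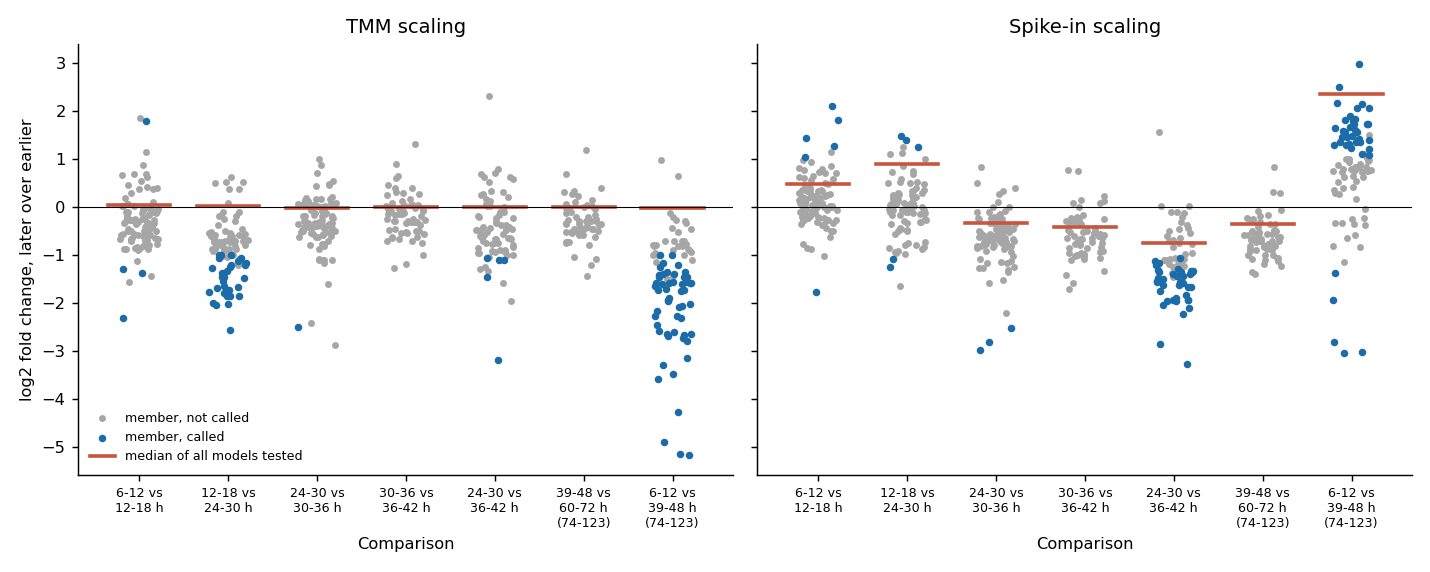
Log2 fold change (later over earlier) of each member in 7 comparisons, with TMM scaling on the left and spike-in scaling on the right. Points are models, blue where called, and red bars are the median of all models tested. With TMM the members lie mostly below 0, and from 6 to 12 h to 39 to 48 h most lie above 0 with spike-in scaling while still below the bar at 2.36.

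Embryos 74 to 123, none of which took part in the choice, also held the members at a low share. From 6 to 12 h of embryos 1 to 73 (9 embryos) to 39 to 48 h of embryos 74 to 123 (12 embryos), 54 of 87 members tested fell (62.1%) and none rose. Over all 11064 models 23.1% were called lower and 25.2% higher. With spike-in scaling the direction turned for most members, with values given under that scale. The median log2 fold change was -1.45 for the members and -0.03 over all models, and 85 of the 87 lay below 0. Block and age cannot be told apart in this comparison. By their medians, 84 of the 98 models were at or under 0.5 times their early level at 39 to 48 h and 44 at or under 0.25 times. The median ratio there was 0.27 for the members and 0.47 over the 7676 early models, so more than 0.5 of those were also at or under 0.5 times. The early level in these ratios is one that chose the members. No model had a median above its early one. Within this block no further decline was called: from 39 to 48 h to 60 to 72 h, 0 of 60 members tested passed with edgeR, 11 had an unadjusted p under 0.05, and DESeq2 called 1 and voom 0. Of all 10842 models, 0.0461% were called lower and 0.101% higher. Of the 60 members, 47 lay below 0, as did 49.9% of all models. The median log2 fold change was -0.36 for the members and 0.00 over all models, and 38 members were not tested. The summed share of the members was 0.536% at 39 to 48 h (0.437 to 0.875%), 0.471% at 48 to 60 h (0.337 to 0.744%) and 0.442% at 60 to 72 h (0.339 to 0.733%).

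At like ages the summed share of the members was higher in embryos 74 to 123 than in embryos 1 to 73, while single members differed in direction. Of the 98 models, 62 had a higher median at 39 to 48 h in embryos 74 to 123 than at 42 to 48 h in embryos 1 to 73, where the rule had chosen low values. The equal label times of 2360 to 2480 min avoid these bins. At 2360 min the summed share was 0.349% in embryo 61 and 0.862% in embryo 123. At 2400 min it was 0.398% in embryo 62 and 0.875% in embryo 122. At 2440 min embryo 63 had 0.348% and embryo 121 0.510%, and at 2480 min embryo 64 had 0.244% and embryo 120 0.563%. The embryo of the second block was thus higher in 4 of 4 pairs. Embryos 123 and 122 were shallow, with 134581 and 207532 counts, and had counts for 60 and 66 of the 98 models against 91 and 97 in their partners. Embryo 121 was deeper than embryo 63 (1063925 against 658387 counts) and also had counts for fewer models, 86 against 94. Embryo 120 had 83 against 95 in embryo 64, at 729577 against 1405665 counts. In a fit over these pairs with label time as a block, added after the data were seen, 0 of 56 members and 0 of 9879 models were called with edgeR. There 13 members had an unadjusted p under 0.05, and the median log2 difference was 0.55 for members and -0.27 for all models. Without a filter on low counts the median was 0.01 over all 98 members and -0.83 over all models, 49 members lay below 0, and 2 were called lower. With spike-in scaling 3 members were called higher in the second block and none lower, where 0.243% of models were higher and 0.0202% lower.

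Relative to spike-in RNA the decline to 42 to 48 h was smaller than in CPM, and at 39 to 48 h and 48 to 60 h in embryos 74 to 123 most members were above their early level. Transcript-model counts per spike-in count had a median of 2.47 at 0 to 6 h, 7.47 at 42 to 48 h and 14.6 at 39 to 48 h in embryos 74 to 123. The amount of spike-in RNA per embryo was not given in the sources used here. Per 1000 spike-in counts, the 98 models together had a median of 37.9 counts at 0 to 6 h (21.0 to 46.6), 44.0 at 18 to 24 h (27.1 to 53.7), 16.1 at 36 to 42 h (5.92 to 25.7) and 22.6 at 42 to 48 h (13.0 to 44.0). In embryos 74 to 123 the 98 models had 68.0 at 39 to 48 h (33.9 to 172) and 47.5 at 60 to 72 h (15.2 to 83.0). At the equal label times, embryos 61, 62, 63 and 64 had 5.92, 19.8, 16.1 and 18.9. Their partners, embryos 123, 122, 121 and 120, had 39.8, 47.4, 101 and 63.2, higher in each pair. Block and age cannot be told apart where embryos 74 to 123 are set against the early level. On this scale the median ratio of 42 to 48 h to 0 to 6 h was 0.62 over the 98 models, and 24 of them were at or under 0.5 times and 3 at or under 0.25 times. At 36 to 42 h, a bin not used in the choice, it was lower, 0.44, with 66 at or under 0.5 times and 97 below their early level. At 39 to 48 h in embryos 74 to 123 the median ratio was 1.42, and 65 models were above their early level. At 60 to 72 h it was 0.91, and 54 models were below their early level. On this scale the ratios were not computed over the 7676 early models, so these counts have no background. In the test from 6 to 12 h to 39 to 48 h of embryos 74 to 123, spike-in scaling called 75.2% of all models higher. Of the members tested, 39.1% were called higher there. A CPM value is a share, so an unchanged amount of RNA gives a lower CPM when the rest of the RNA grows. How far the spike-in ratios reflect RNA per embryo was not tested.

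**Figure D4:**
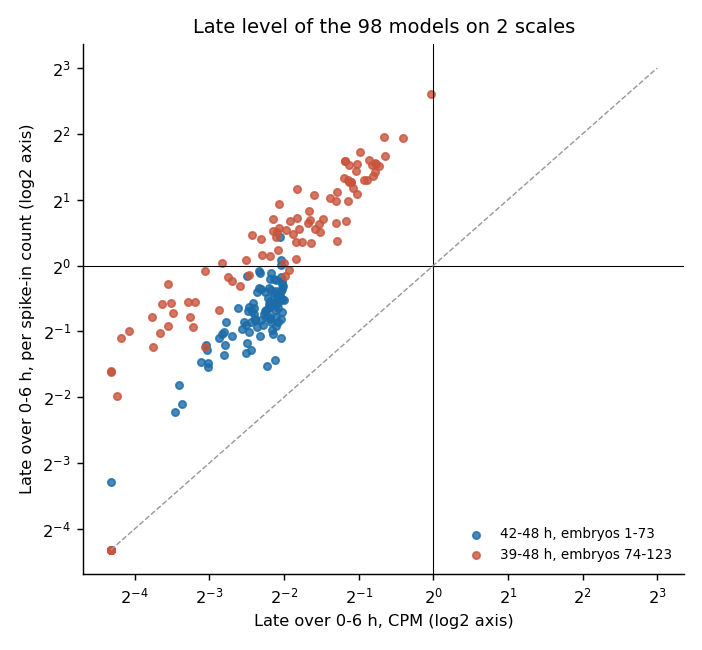
For each of the 98 models, the late over the 0 to 6 h median in CPM (horizontal) and per spike-in count (vertical), both on log2 axes, for embryos 1 to 73 and 74 to 123 (ratios under 0.05 are drawn at 0.05). Points lie above the dashed line of equality for 98 models in embryos 1 to 73 and 91 in embryos 74 to 123, with medians of 0.21 and 0.62 in embryos 1 to 73 and of 0.27 and 1.42 in embryos 74 to 123.

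Scaling the tests to the spike-ins changed the direction for the longest interval, which also crosses the number blocks. Block and age cannot be told apart there. From 6 to 12 h to 39 to 48 h of embryos 74 to 123, 5 of 87 members were called lower and 34 higher, where 0.913% of all models were called lower and 75.2% higher. Of the 54 members that fell with TMM, 37 lay above 0 with spike-in scaling. The median of all models moved from -0.03 to 2.36. The members' median minus that of all models was -1.42 with TMM and -1.47 with spike-ins. From 12 to 18 h to 24 to 30 h, 2 of 89 members were called lower and 3 higher with spike-ins, where 1.10% and 36.4% of models were, and the median of the members was 0.01 against 0.90 over all models. After 24 h members were called lower on both scales. From 24 to 30 h to 36 to 42 h, 38 of 78 members were called lower with spike-ins and none higher. The background was 13.4% lower and 0.633% higher, with medians of -1.20 for members and -0.75 for all models. These bins lie between those that the rule set high and low in CPM, so part of this fall was built into the choice.

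The models first by the rule differed in course. Nv.T1.3948.2, with the lowest ratio of late to early median, had 2.71 to 106 CPM at 0 to 6 h (median 20.9) and 0 to 31.3 CPM at 42 to 48 h (median 0.685). The groups overlapped, and 69 counts over 9 late embryos stand behind the late values. From 6 to 12 h to 39 to 48 h of the second block it fell by 1.40 ± 0.57 (SE) on the log2 scale, at an adjusted p of 0.042. Nv.T1.2170.2, next by the rule, peaked after the first 6 h. It had 0 to 173 CPM at 0 to 6 h (median 29.2), 43.7 to 777 CPM at 6 to 12 h (median 287) and 62.6 to 276 CPM at 12 to 18 h (median 98.3). At 18 to 24 h it was back at 8.43 to 49.5 CPM (median 23.3). The median was higher again at 24 to 30 h, at 40.0 CPM (1.63 to 99.9), with overlap. At 36 to 42 h it had 0 to 19.4 CPM (median 6.51). In the 60 to 72 h embryos it had no counts in 12 of 19.

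Nv.T1.2170.2, Nv.T1.2170.3 and Nv.T1.5919.5 shared this early peak, and most of their decrease came before 24 h. Nv.T1.2170.3, which shares a stem with Nv.T1.2170.2, had a median of 227 CPM at 6 to 12 h (29.1 to 749) and of 89.4 CPM at 12 to 18 h (59.8 to 161), and it fell between them by 1.39 ± 0.46 (SE) on the log2 scale, at an adjusted p of 0.032. Nv.T1.2170.2 also fell in that step (log2 fold change -1.30 ± 0.46, adjusted p = 0.041). Nv.T1.5919.5 had 53.4 to 1385 CPM at 6 to 12 h (median 630) and 25.3 to 326 CPM at 12 to 18 h (median 108), and fell by 2.31 ± 0.51 on the log2 scale at an adjusted p of 0.0061. Its median was 32.9 CPM at 18 to 24 h and higher, 55.7 CPM, at 24 to 30 h. That of Nv.T1.2170.3 was 16.8 and 31.0 CPM in these bins, and the bins overlapped for both models. Nv.T1.5919.5 fell again from 24 to 30 h (18.0 to 243 CPM) to 30 to 36 h (6.27 to 37.2 CPM, log2 fold change -2.50 ± 0.47, adjusted p = 0.023). To 39 to 48 h of the second block, Nv.T1.5919.5 fell by 5.17 ± 0.54 on the log2 scale (adjusted p = 1.9e-08) and Nv.T1.2170.2 by 5.14 ± 0.73 (adjusted p = 1.7e-06). With spike-in scaling these last falls were smaller, -3.01 ± 0.51 and -3.04 ± 0.68, and were still called. From 6 to 12 h to 12 to 18 h, spike-in scaling gave -1.78 ± 0.57 for Nv.T1.5919.5, still called (adjusted p = 0.031). It gave -0.89 ± 0.50 for Nv.T1.2170.3 and -0.77 ± 0.52 for Nv.T1.2170.2, which were not called (adjusted p = 0.19 and 0.28). Nv.T1.2170.3 was also not called there without 8 unusual libraries (adjusted p = 0.053). Of the 98 models, 4 had a median at 6 to 12 h of at least 2 times the early one.

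A late and moderate peak marked other models. Nv.T1.11393.4 had the highest ratio of its 18 to 24 h level to its early one. It went from 10.8 to 87.0 CPM at 0 to 6 h (median 38.0) to 50.4 to 121 CPM at 18 to 24 h (median 84.8), 8.01 to 81.4 CPM at 24 to 30 h (median 38.3) and 0 to 94.1 CPM at 42 to 48 h (median 7.10). Nv.T1.11653.2 had medians of 34.3 CPM at 0 to 6 h, 76.1 CPM at 18 to 24 h and 27.6 CPM at 24 to 30 h. Its 18 to 24 h values (18.7 to 128 CPM) overlapped both. Both models fell to 39 to 48 h of the second block with TMM (log2 fold changes -2.66 ± 0.64, adjusted p = 0.0010, and -1.58 ± 0.64, adjusted p = 0.041), and neither was called with spike-ins (adjusted p = 0.35 and 0.33).

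The largest drops just past 24 h were in models of low level. Nv.T1.25101.1 had 6.86 to 112 CPM at 18 to 24 h (median 40.1) and 0 to 35.5 CPM at 24 to 30 h (median 8.17), and the groups overlapped. It was then uneven, with a median of 16.3 CPM at 36 to 42 h and up to 216 CPM in embryo 61. Nv.T1.7908.2 had 6.24 to 19.9 CPM at 18 to 24 h (median 15.9) and 0 to 6.54 CPM at 24 to 30 h (median 3.18), again with overlap. Its later medians in embryos 1 to 73 were 3.22, 6.77 and 4.80 CPM, near what 3 counts give at median depth.

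The most abundant members spread widely between embryos of 1 age. Nv.T1.12653.785 had 888 to 6614 CPM at 0 to 6 h (median 1956), 1096 to 5246 CPM at 6 to 12 h (median 2368) and 235 to 1486 CPM at 36 to 42 h (median 489). In embryos 74 to 123 its median was 674 CPM at 39 to 48 h and 787 CPM at 60 to 72 h. Nv.T1.61903.1 had 296 to 2163 CPM at 0 to 6 h (median 748) and 75.1 to 353 CPM at 42 to 48 h (median 131), with overlap, and a median of 285 CPM at 60 to 72 h. From 6 to 12 h to 39 to 48 h of the second block they fell by 1.41 ± 0.34 and 1.16 ± 0.37 on the log2 scale (adjusted p = 0.0011 and 0.010). With spike-in scaling the values were 0.99 ± 0.47 (adjusted p = 0.057) and 1.34 ± 0.53 (adjusted p = 0.022), the second of them a rise.

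**Figure D5:**
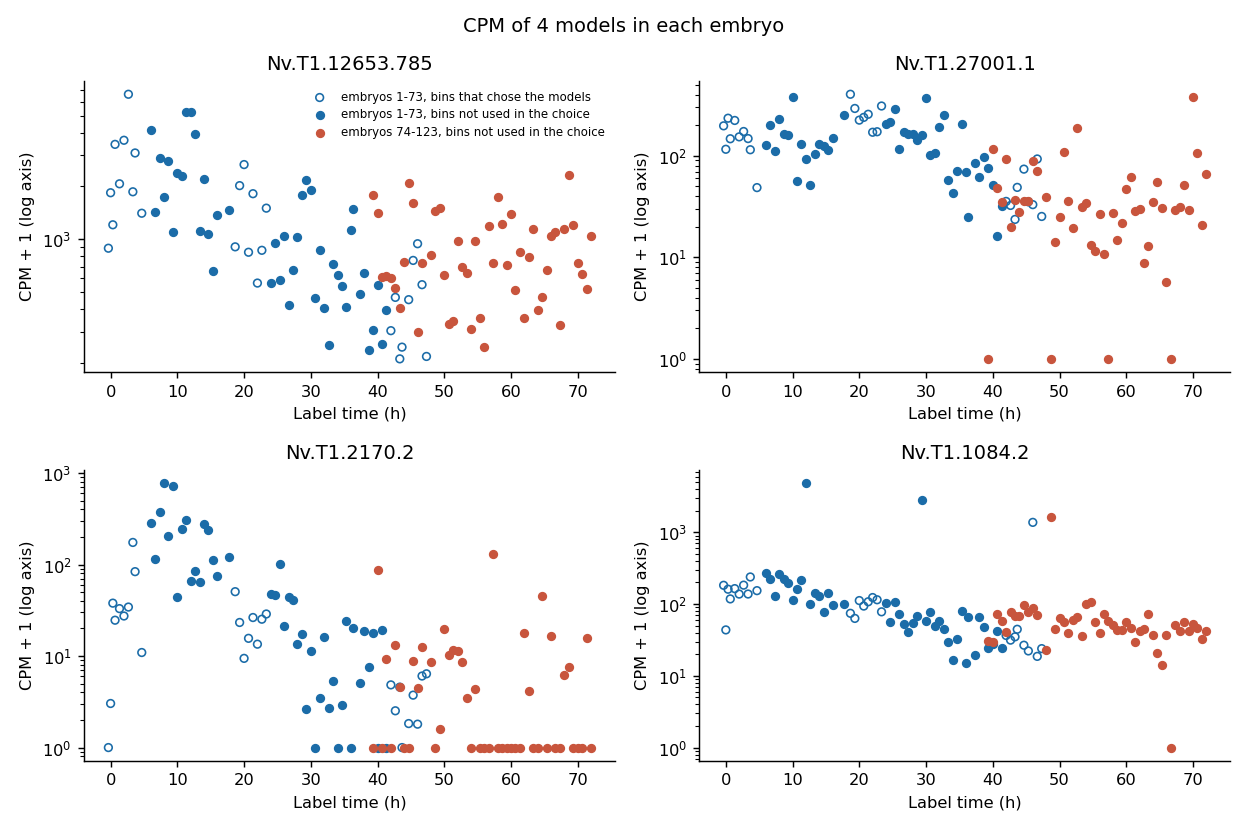
CPM plus 1 on a log axis against label time in hours for Nv.T1.12653.785, Nv.T1.27001.1, Nv.T1.2170.2 and Nv.T1.1084.2, 1 point per embryo, open where the embryo's bin chose the models. Nv.T1.27001.1 holds its level to 24 to 30 h (median 165 CPM), Nv.T1.2170.2 peaks at 6 to 12 h (median 287 CPM), and Nv.T1.1084.2 stands far above its neighbours in embryos 20, 45, 71 and 109.

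Many members were separate models with a shared identifier stem. The 98 models had 82 stems, 51 of them were the sole model of their stem, and 21 belonged to 5 stems with 2 or more members. Stem 10392 gave 6 members of its 16 models. Their summed CPM had a median of 1579 at 0 to 6 h, 1016 at 18 to 24 h and 305 at 42 to 48 h, while its other models summed to 617, 470 and 323 CPM. Single members of this stem were alike, at 219 to 346 CPM early and 35.5 to 74.5 CPM late. Stem 12653 gave 5 members of 539 models. These summed to 2428 CPM early and 535 CPM at 42 to 48 h, beside 99702 and 97014 CPM in its other models. The sources do not say what a stem is, and its models may share sequence, so these members are not independent of each other.

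The other models of a member's stem did not follow one course. Other models summed to at least 20 CPM early in 18 stems. At 42 to 48 h they were at or under 0.25 times the early sum in 4 of these stems, above that and up to 0.5 times in 7, between 0.5 times and the early sum in 4, and at or above it in 3. In stem 10117, whose member went from 139 to 25.6 CPM, the other 2 models together went from 51.7 to 122 CPM.

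Stem 1084 held one model that was erratic in single embryos. All 4 of its models were members, and Nv.T1.1084.6, Nv.T1.1084.2, Nv.T1.1084.3 and Nv.T1.1084.5 had late to early ratios between 0.19 and 0.24. Nv.T1.1084.2 had 40.0 to 106 CPM in 8 of the 9 embryos at 24 to 30 h and 2841 CPM in embryo 45, from 1739 counts. It had 77.7 to 142 CPM in 7 of 8 embryos at 12 to 18 h and 4875 CPM in embryo 20. It had 17.7 to 43.5 CPM at 42 to 48 h outside embryo 71, which had 1376 CPM, and 21.6 to 105 CPM at 48 to 60 h outside embryo 109, which had 1620 CPM. In embryo 45 Nv.T1.1084.3 (96.4 CPM) and Nv.T1.1084.5 (91.5 CPM) lay within the range of the remaining embryos, 56.0 to 104 and 75.3 to 141 CPM. Nv.T1.1084.6 lay above it there, with 304 CPM against 117 to 214 CPM. The fall of Nv.T1.1084.2 from 24 to 30 h to 36 to 42 h (log2 fold change -3.20 ± 0.80, adjusted p = 0.028) rested on embryo 45. Without that embryo it was -0.77 ± 0.29 and was not called (adjusted p = 0.12). With that embryo kept, neither DESeq2 (-0.73, adjusted p = 0.093) nor voom (-1.40, adjusted p = 0.18) called it.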

How the data were processed

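The authors deposited raw whole-number counts for 40499 transcript models, 92 ERCC spike-ins and 5 rows of unassigned counts in 123 embryos. The submitters' processing notes list CASAVA 1.8, Bowtie2 2.1.0 and HTSeq 0.5.4p3. For the genome build, the annotation, the strand setting and any removal of repeat copies, each is not given in the sources used here. Libraries were treated with DSN, a nuclease that lowers the share of abundant molecules, per the labels' protocols. The rows of unassigned counts stayed out of all sums. Of an embryo's counts, a median of 10.1% had no feature and 37.0% were unaligned.

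Embryos 10 and 111 (under 50000 model counts) and embryo 27 (the lowest ratio of model to spike-in counts, 0.254) were left out. Bins were cut from label time and number block. The labels name no clutches, and p-values then cover only how these embryos vary, which may be technical. Also, the spread within a bin includes age. Groups were compared with edgeR 4.0.16 in R 4.3.3 (quasi-likelihood F test, TMM scaling, filterByExpr, only the groups compared in each fit). A standard error is the size of the log2 fold change over the root of the F statistic. Comparisons that share a bin share its embryos. The fit from 24 to 30 h to 36 to 42 h, and no other, was also run on simulated data. Alternatives were DESeq2 1.42.0, voom in limma 3.58.1 with quantile normalization, other scalings, filters and library minimums, and leaving out embryos. The members, bins and named models (extremes of level, course and fold change) were chosen with earlier results of these data known.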

Additional observations from a re-analysis of the deposited data

Results flagged for a closer look

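In each bin of embryos 1 to 73, the highest and lowest embryo were compared with the nearest other embryo by Dixon's 95% limit, for the summed levels and the 15 named models. Of 136 such groups, 34 had an embryo beyond the limit, in each case the highest one. The limit is set for normally distributed values, where about 1 in 20 groups would have an embryo beyond it. The values here were not put on a log scale and a bin spans 6 h, so that rate may not hold. The groups are not independent, since models share embryos.

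In the summed share of the 98 models, embryo 45 (29.3 h) stood out with 1.19% at 24 to 30 h and embryo 46 (30 h) with 0.838% at 30 to 36 h. Without Nv.T1.1084.2 these shares were 0.908% and 0.832%. Their ratios of model to spike-in counts, 3.24 and 1.94, were the lowest of their bins, and the part of this in the result was not tested. Embryo 46 was also high for Nv.T1.12653.785 (1897 CPM), Nv.T1.61903.1 (492.5 CPM) and Nv.T1.846.1 (657 CPM).

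Nv.T1.1084.2 had 4875 CPM in embryo 20, 2841 CPM in embryo 45 and 1376 CPM in embryo 71. Embryo 20 was also high for Nv.T1.61903.1 (1575 CPM) and Nv.T1.3948.2 (62.1 CPM), and embryo 71 for Nv.T1.63571.13856 (179 CPM) and Nv.T1.3948.2 (31.3 CPM). Nv.T1.3948.2 further had 106 CPM in embryo 8 and 70.8 CPM in embryo 33.

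Embryo 7, of the 0 to 6 h bin, was high for 3 of the models that peaked at 6 to 12 h: Nv.T1.5919.5 (2245 CPM), Nv.T1.2170.2 (173 CPM) and Nv.T1.2170.3 (190 CPM). It is 1 of the 8 unusual libraries left out in an alternative. Embryo 39 was high for Nv.T1.2170.2 (99.9 CPM) and Nv.T1.2170.3 (80.1 CPM). Nv.T1.2170.2 had 49.5 CPM in embryo 29, and Nv.T1.2170.3 had 5.80 CPM in embryo 69.

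Nv.T1.12421.1 had a high embryo in 5 bins: 631 CPM in embryo 25, 131 CPM in embryo 45, 82.9 CPM in embryo 49, 152 CPM in embryo 61 and 64.7 CPM in embryo 69. Embryo 49 was also high for Nv.T1.5919.5 (37.2 CPM) and Nv.T1.7908.2 (10.1 CPM). Nv.T1.12653.785 had 6614 CPM in embryo 6. Nv.T1.11393.4 had 94.1 CPM in embryo 65, Nv.T1.11653.2 had 179 CPM in embryo 22 and 104 CPM in embryo 60, and Nv.T1.25101.1 had 86.8 CPM in embryo 14 and 77.2 CPM in embryo 21.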

How the results depend on the processing

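The choice of the models depended on CPM. The same rule on counts per spike-in count chose 9 models, 0 of them among the 98. Other settings chose 81 to 107, of which 53 (bin means) to 89 (without embryo 50) were among the 98. Spike-in scaling gave 39 called members (5 lower, 34 higher) from 6 to 12 h to 39 to 48 h, 38 from 24 to 30 h to 36 to 42 h, 6 (1 lower, 5 higher) from 6 to 12 h to 12 to 18 h, 5 (2 lower, 3 higher) from 12 to 18 h to 24 to 30 h, 3 from 24 to 30 h to 30 to 36 h, 22 for the slope, and 3 (all higher) at equal label times. Without 8 unusual libraries, 1 lower and 2 higher, 3 in all, were called from 6 to 12 h to 12 to 18 h. From 24 to 30 h to 36 to 42 h DESeq2 called 9, voom 8 and the fit without a filter 12. From 24 to 30 h to 30 to 36 h they called 2, 3 and 3. From 39 to 48 h to 60 to 72 h DESeq2 called 1, the fit without a filter 1, and a minimum of 500000 counts 1. For the slope DESeq2 called 16, no filter 18 (17 lower) and that minimum 5. Without a filter 2 (both lower) were called at equal label times. Leaving out 1 embryo at a time gave 46 to 71 called members from 6 to 12 h to 39 to 48 h and 2 to 8 from 24 to 30 h to 36 to 42 h. Leaving out each pair of equal label time gave 0 to 0. No paired analysis was possible because the labels number no replicates within a group, except over the 4 pairs of equal label time, where label time was the block. Members at low counts were tested least: 46 to 96 of the 98 passed the filter, depending on the comparison.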
